A study of Homo sapiens with 24 samples.

Results

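The 8 genes described here are the 3 transforming growth factor beta (TGF-beta) ligands TGFB1, TGFB2 and TGFB3, their receptors TGFBR1, TGFBR2 and TGFBR3, and the signal transducers SMAD3 and SMAD7, out of 22395 genes with a named probe set. They were taken by name, and the group was formed around TGFB2 because its level differed in opposite directions between sorted fractions of SUM159 and T47D cells. Differences of these 8 genes between fractions are therefore given as a description with no p-value. TGFB2 carries no p-value in any comparison, because its other comparisons use the same arrays. Each gene was read by 1 probe set that names only that gene, and no gene had a second such probe set.

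SUM159 is a mesenchymal, triple-negative breast cancer line. T47D is a breast cancer line of luminal type that carries the oestrogen receptor. The 8 groups, of 3 arrays each, were SUM159 cells given ID8 and sorted as Aldefluor+, SUM159 given DMSO and sorted as Aldefluor+, SUM159 given ID8 and sorted as Aldefluor-, SUM159 given DMSO and sorted as Aldefluor-, and the same 4 groups of T47D. ID8, a small molecule known as an inhibitor of DYRK kinases, was given at 5 µM for 72 hours, and DMSO was the vehicle. Aldefluor is a dye reagent that brightens cells with high aldehyde dehydrogenase activity, its gate was set on cells given the inhibitor DEAB, and all 8 groups were stained and sorted. Each line was run in 3 separate experiments, numbered 2, 3 and 4 for SUM159 and 5, 6 and 7 for T47D, with 1 array per group and experiment, from cells pooled over 3 flasks per treatment.

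TGF-beta ligands are secreted in a latent form and released in the matrix by integrins, thrombospondin 1 and proteases. Released ligand binds the type II receptor TGFBR2, which phosphorylates the type I receptor TGFBR1. That receptor phosphorylates SMAD2 and SMAD3, which join SMAD4 and act on genes in the nucleus. TGFB2 binds TGFBR2 weakly by itself and relies on the coreceptor TGFBR3, also called betaglycan, while SMAD7 is an inhibitor of the receptors that the pathway itself induces. In breast epithelium the pathway is known for restraining growth and, in carcinoma cells, for promoting a mesenchymal state.

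The promoter windows of the 3 ligands are shown side by side. Group means of TGFB2 spanned 2.43 in SUM159 and 2.57 in T47D. Those of TGFB1 spanned 0.22 and 0.48, and those of TGFB3 0.11 and 0.21. TGFB2 was chosen for fraction differences that lie within its ranges, so nothing is read from their greater width. The part of the promoters in these ranges was not tested. Each window runs from 250 bases before to 50 bases after an annotated start, is read 5′ to 3′ on the gene's strand and comes from RefSeq on GRCh38.p14. TGFB2 lies on the plus strand (chr1:218345086-218345385), TGFB1 on the minus strand (chr19:41353873-41354172), and TGFB3, on the minus strand, has an outer start (chr14:75982962-75983261) and an inner start (chr14:75981946-75982245). Capitals mark matches on either strand to TGACG (part of a cyclic AMP response element), GGAATG (TEAD), CAGAC (SMAD) or GGGCGG (GC box).
TGFB2: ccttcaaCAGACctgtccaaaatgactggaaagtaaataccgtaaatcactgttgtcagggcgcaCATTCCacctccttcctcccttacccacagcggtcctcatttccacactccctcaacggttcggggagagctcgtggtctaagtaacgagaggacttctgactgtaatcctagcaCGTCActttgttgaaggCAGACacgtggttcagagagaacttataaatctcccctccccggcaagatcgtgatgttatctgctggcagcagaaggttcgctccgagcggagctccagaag
TGFB1: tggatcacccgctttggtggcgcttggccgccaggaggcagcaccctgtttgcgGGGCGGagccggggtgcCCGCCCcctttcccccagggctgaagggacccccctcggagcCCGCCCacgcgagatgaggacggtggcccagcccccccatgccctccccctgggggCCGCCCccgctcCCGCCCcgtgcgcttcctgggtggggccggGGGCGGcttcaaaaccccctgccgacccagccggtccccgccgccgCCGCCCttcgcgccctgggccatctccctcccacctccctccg
TGFB3, outer start: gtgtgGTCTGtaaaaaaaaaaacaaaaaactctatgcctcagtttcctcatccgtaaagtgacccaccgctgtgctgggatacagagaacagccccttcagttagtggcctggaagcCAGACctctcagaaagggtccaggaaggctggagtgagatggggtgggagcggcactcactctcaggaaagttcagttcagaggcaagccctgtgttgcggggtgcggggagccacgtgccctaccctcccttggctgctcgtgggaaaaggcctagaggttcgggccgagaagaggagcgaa
TGFB3, inner start: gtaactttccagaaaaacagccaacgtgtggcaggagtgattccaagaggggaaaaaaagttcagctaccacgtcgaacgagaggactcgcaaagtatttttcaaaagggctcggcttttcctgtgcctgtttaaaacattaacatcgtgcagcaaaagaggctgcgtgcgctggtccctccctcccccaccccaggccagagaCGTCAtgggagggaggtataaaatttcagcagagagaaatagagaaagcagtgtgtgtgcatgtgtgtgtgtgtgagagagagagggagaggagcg

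The TGFB2 window held 1 TGACG match at -70, 1 GGAATG match at -185 and 2 CAGAC matches at -243 and -53, counted from -1 as the last base before the start, and no GC box. It held 51.7% G and C. The TGFB1 window held 77.3% G and C, 7 GC boxes and none of the other letters searched. TGFB3 had 2 CAGAC matches at its outer start and 1 TGACG match, at -46, at its inner start. The letters TGANTCA, an AP-1 site, were in none of these 4 windows. Of all 35116 promoter windows of this length, 24.6% held TGACG, 14.0% GGAATG, 45.3% CAGAC, 45.0% GGGCGG and 7.7% TGANTCA, so such matches are common. No measurement of binding at these promoters was made here. All 8 genes had a window in the RefSeq table, and none of the searched motifs overlapped another within the windows shown.

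**Figure D1:**
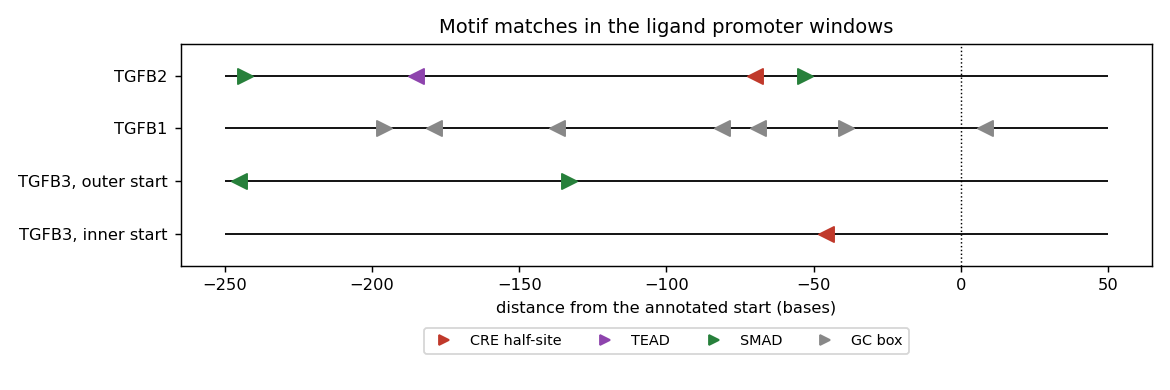
Motif matches in the promoter windows of the 3 ligand genes, placed by distance in bases from the annotated start. Arrowheads give the strand of the match, and the 7 GC boxes of TGFB1 contrast with none in the TGFB2 and TGFB3 windows.

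Values throughout are log2 signals that the authors had normalised and adjusted for batch. That adjustment can compress differences, and the lines differed with an SD of only 0.118 over genes, so levels are compared only within a line. Levels of different genes are not compared because each has its own probe set. The lines still carried their markers: 12 of 12 measured markers of SUM159 were higher in SUM159, and 14 of 14 markers of T47D were higher in T47D. Defining markers of other cells were mostly in the lower range, with means under 2 for 8 of 9 leukocyte, 4 of 7 fibroblast and 5 of 7 endothelial genes. That range holds 49% of all genes. The leukocyte gene PTPRC averaged 0.91 in SUM159 and 0.90 in T47D. The array of SUM159 DMSO Aldefluor+ cells from experiment 4 had the narrowest spread of values, an interquartile range of 2.88 against 2.97 to 3.12 for the other 23. No 2 arrays held the same values, and precision is limited by the 3 arrays per group. With so few arrays, groups can lie apart without a real difference. The share of all genes whose groups do not overlap was not counted, so a lack of overlap is only a description.

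TGFB2 was higher with ID8 than with DMSO in both fractions of both lines, and the fraction with more TGFB2 was Aldefluor- in SUM159 and Aldefluor+ in T47D. In SUM159 Aldefluor- cells it measured 6.58, 6.66 and 6.79 with ID8, against 4.55, 4.52 and 4.24 with DMSO, in experiments 2, 3 and 4. In SUM159 Aldefluor+ cells it measured 5.21, 5.29 and 5.39 with ID8, against 4.32, 4.16 and 4.24 with DMSO. All ID8 arrays lay above all DMSO arrays in each fraction.

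In T47D Aldefluor+ cells TGFB2 measured 6.36, 6.05 and 6.26 with ID8, against 4.95, 5.26 and 5.12 with DMSO, in experiments 5, 6 and 7. These groups did not overlap. In T47D Aldefluor- cells it measured 4.17, 5.07 and 4.72 with ID8, against 4.27, 3.16 and 3.52 with DMSO. Here the groups overlapped, since in experiment 5 the ID8 array lay slightly below its DMSO array.

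**Figure D2:**
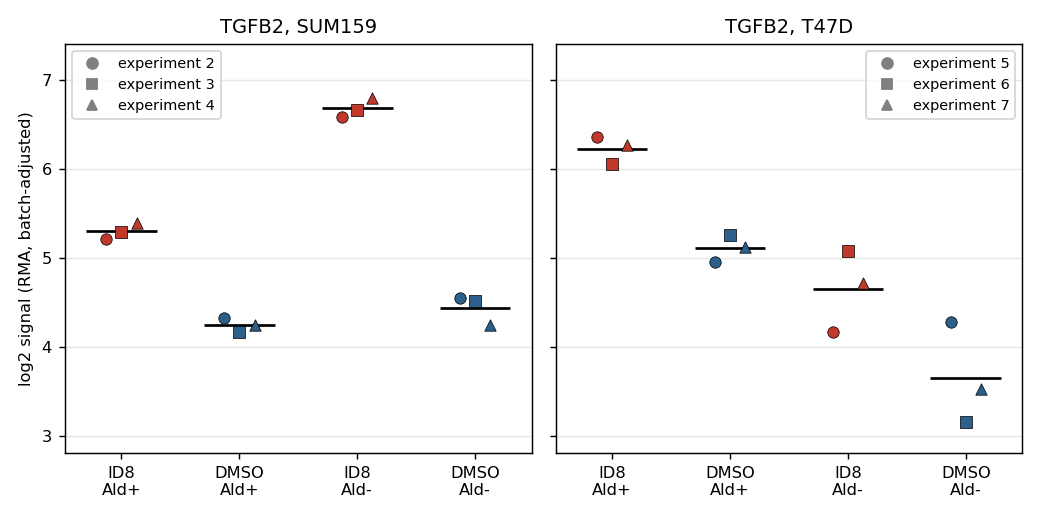
TGFB2 log2 signal on each of the 24 arrays, with SUM159 left and T47D right. Each point is an array, its shape is the experiment, and the bars are group means. ID8 arrays sit above DMSO arrays except in T47D Aldefluor- cells of experiment 5, and the fractions stand in opposite order in the 2 lines.

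The level order within SUM159 was ID8 Aldefluor- (6.68 ± 0.109), ID8 Aldefluor+ (5.29 ± 0.089), DMSO Aldefluor- (4.44 ± 0.167) and DMSO Aldefluor+ (4.24 ± 0.080; SD, n = 3). The 2 DMSO groups overlapped and did not differ beyond their spread. Within T47D the order was ID8 Aldefluor+ (6.22 ± 0.155), DMSO Aldefluor+ (5.11 ± 0.152), ID8 Aldefluor- (4.65 ± 0.456) and DMSO Aldefluor- (3.65 ± 0.568). In this line only the first step of the order was free of overlap: DMSO Aldefluor+ overlapped ID8 Aldefluor-, and that group overlapped DMSO Aldefluor-. The 4 group means spanned 2.43 in SUM159 and 2.57 in T47D, a range that contains the fraction differences for which TGFB2 was chosen.

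The opposite fraction differences were of similar size with ID8. In ID8-treated SUM159 the Aldefluor+ minus Aldefluor- difference was -1.38 ± 0.244 (log2, SE), 2.61-fold lower in Aldefluor+ cells, and the 3 experiments gave -1.37, -1.38 and -1.41. In ID8-treated T47D the difference was 1.57 ± 0.244, 2.97-fold higher in Aldefluor+ cells, with 2.19, 0.98 and 1.54 in the 3 experiments. Each SE comes from 1 spread per gene shared by all groups of both lines. The TGFB2 SDs were 0.456 and 0.568 in the T47D Aldefluor- groups and 0.080 to 0.167 in SUM159. SEs and intervals may therefore be too narrow where T47D Aldefluor- cells enter, and too wide within SUM159. Sorted cells are bulk samples, so fewer cells expressing a gene and less RNA per cell cannot be told apart.

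With DMSO the T47D difference was also large and the SUM159 difference was small. In DMSO-treated T47D it was 1.46 ± 0.244, or 2.75-fold, with 0.68, 2.10 and 1.60 in the 3 experiments. In DMSO-treated SUM159 it was -0.19 ± 0.244, with -0.22, -0.35 and -0.01. Its 95% interval ran from -0.71 to 0.32. The T47D minus SUM159 difference between these fraction differences was 2.95 ± 0.345 with ID8 and 1.66 ± 0.345 with DMSO.

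The means of some marker lists differed between the fractions as well. In ID8-treated SUM159 the mean of the fibroblast list was 1.77 to 1.93 in Aldefluor+ arrays and 1.98 to 2.14 in Aldefluor- arrays. COL6A3, a collagen VI chain, was the 1 list gene called lower in Aldefluor+ cells, where 0.201% of all genes were called. With DMSO the fibroblast list was at 1.91 to 2.02 in Aldefluor+ and 2.13 to 2.18 in Aldefluor- arrays of SUM159, and the endothelial list at 1.52 to 1.58 and 1.27 to 1.35. In T47D the mean of the SUM159 line markers was 4.51 to 4.58 in Aldefluor+ and 4.40 to 4.46 in Aldefluor- arrays with ID8, and 4.58 to 4.66 and 4.40 to 4.46 with DMSO. Only 7 of these 12 genes with ID8 and 8 of 12 with DMSO were higher in Aldefluor+ cells, so the list did not move as a whole. ANXA1, an annexin, was the 1 list gene called higher with DMSO, where 0.152% of all genes were called. The leukocyte list in DMSO-treated T47D was at 1.49 to 1.66 in Aldefluor+ and 1.34 to 1.49 in Aldefluor- arrays, just without overlap. The part of these lists in the TGFB2 differences was not tested.

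The ID8 minus DMSO difference of TGFB2 was 2.24 ± 0.244 in SUM159 Aldefluor- cells, or 4.73-fold, with 2.03, 2.14 and 2.55 in experiments 2, 3 and 4. In SUM159 Aldefluor+ cells it was 1.05 ± 0.244, or 2.07-fold, with 0.88, 1.12 and 1.15. The Aldefluor+ response minus the Aldefluor- response was -1.19 ± 0.345 in SUM159, and it was negative in all 3 experiments at -1.15, -1.02 and -1.40. The smaller response in Aldefluor+ cells is the same arithmetic as the wider gap between fractions with ID8.

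In T47D the ID8 minus DMSO difference was 1.11 ± 0.244 in Aldefluor+ cells, or 2.16-fold, with 1.40, 0.79 and 1.14 in experiments 5, 6 and 7. In Aldefluor- cells it was 1.00 ± 0.244, or 2.00-fold, with -0.11, 1.91 and 1.20. That value was 1.56 without experiment 5 and 0.55 without experiment 6. The responses of the T47D fractions differed by 0.11 ± 0.345, with a 95% interval of -0.62 to 0.84 and experiments at 1.51, -1.12 and -0.06. These experiments lay further apart than the SE shared by both lines conveys. Set between lines, the T47D minus SUM159 response was 0.06 ± 0.345 in Aldefluor+ cells and -1.24 ± 0.345 in Aldefluor- cells.

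Averaged over both fractions, TGFB2 was higher with ID8 by 1.65 ± 0.173 in SUM159 and by 1.06 ± 0.173 in T47D, in each of the 3 experiments of both lines. In SUM159 the line's own marker list was lower with ID8, with means of 4.79 to 4.97 with ID8 and 5.05 to 5.20 with DMSO in Aldefluor+ arrays, and 4.90 to 4.99 and 5.13 to 5.17 in Aldefluor- arrays. The endothelial list was at 1.40 to 1.42 with ID8 and 1.52 to 1.58 with DMSO in SUM159 Aldefluor+ arrays, and the fibroblast list at 1.73 to 1.82 with ID8 and 1.87 to 2.03 with DMSO in T47D Aldefluor+ arrays. The part of these lists in the ID8 differences given here was not tested.

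Counts of the 8 genes past the threshold (limma with Benjamini-Hochberg adjustment over all genes, adjusted p under 0.05) stand beside the share of all genes past it. For ID8 minus DMSO the count was 0 of 8 in SUM159 Aldefluor+ cells (0.241% of all genes), 1 of 8 in SUM159 Aldefluor- cells (0.277%), 0 of 8 in T47D Aldefluor+ cells (0.375%) and 0 of 8 in T47D Aldefluor- cells (0.0179%). For Aldefluor+ minus Aldefluor- it was 1 of 8 in SUM159 with ID8 (0.201%), 0 of 8 in SUM159 with DMSO (0.0223%), 1 of 8 in T47D with ID8 (0.366%) and 1 of 8 in T47D with DMSO (0.152%). The gene past the threshold was TGFB2 each time. The genes were chosen on fraction differences of these arrays, so nothing is read from any of these counts, with ID8 or between fractions. Without experiment 4 the 1 gene in SUM159 Aldefluor- cells became 0, at a TGFB2 difference of 2.09.

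The median ID8 minus DMSO difference of the 8 genes stayed near that of all genes. It was -0.07 against -0.01 in SUM159 Aldefluor+ cells, 0.05 against -0.01 in SUM159 Aldefluor- cells, -0.06 against -0.01 in T47D Aldefluor+ cells and 0.13 against 0.00 in T47D Aldefluor- cells.

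For the other 7 genes none of the ID8 comparisons passed, with lowest adjusted p-values of 0.256, 0.507, 0.236 and 0.748 in SUM159 Aldefluor+, SUM159 Aldefluor-, T47D Aldefluor+ and T47D Aldefluor- cells (limma). Nor did a difference of ID8 responses pass for any of them. Between fractions the lowest adjusted p was 0.65 in SUM159, where 0.00447% of all genes passed, and 0.775 in T47D, where 0% passed and 1328 genes had an unadjusted p under 0.05. Between lines it was 0.233 in Aldefluor+ cells (0.33% of all genes) and 0.619 in Aldefluor- cells (0.067%).

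TGFB1, the most widely expressed ligand of the family, had its clearest values in T47D Aldefluor+ cells. It measured 3.88, 3.78 and 3.80 with ID8, against 4.29, 4.30 and 4.14 with DMSO. The groups did not overlap, and the difference was -0.43 ± 0.138 (log2, SE, adjusted p = 0.236 by limma). The T47D Aldefluor- arrays were at 3.74, 3.83 and 3.91 with ID8, against 3.80, 3.71 and 3.79 with DMSO.

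Among DMSO-treated T47D cells TGFB1 was higher in Aldefluor+ cells by 0.48 ± 0.138, with no overlap, and with ID8 the fractions differed by -0.01 ± 0.138. This ligand and TGFB2 stood in opposite positions in T47D Aldefluor+ cells, TGFB1 lower and TGFB2 higher with ID8 in all 3 experiments. In SUM159 TGFB1 ranged from 4.12 to 4.68 over the 12 arrays, and its ID8 minus DMSO differences were 0.16 ± 0.138 in Aldefluor+ and -0.12 ± 0.138 in Aldefluor- cells, with overlapping groups.

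TGFB3, the ligand that like TGFB1 binds TGFBR2 directly, varied over a narrow range, with group means 0.11 apart at most in SUM159 and 0.21 apart in T47D. In T47D Aldefluor+ cells it measured 3.90, 3.87 and 3.72 with ID8, against 3.51, 3.68 and 3.66 with DMSO, a difference of 0.21 ± 0.126 (adjusted p = 0.59 by limma). In T47D Aldefluor- cells it measured 3.68, 3.78 and 3.75, against 3.57, 3.66 and 3.62, a difference of 0.12 ± 0.126 (adjusted p = 0.955). Both pairs of groups just failed to overlap. In SUM159 the ID8 differences were 0.04 ± 0.126 and 0.11 ± 0.126 in Aldefluor+ and Aldefluor- cells, and fraction differences lay between -0.01 and 0.09 in both lines. The 95% interval of its largest ID8 difference reached 0.48, below the TGFB2 estimates.

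**Figure D3:**
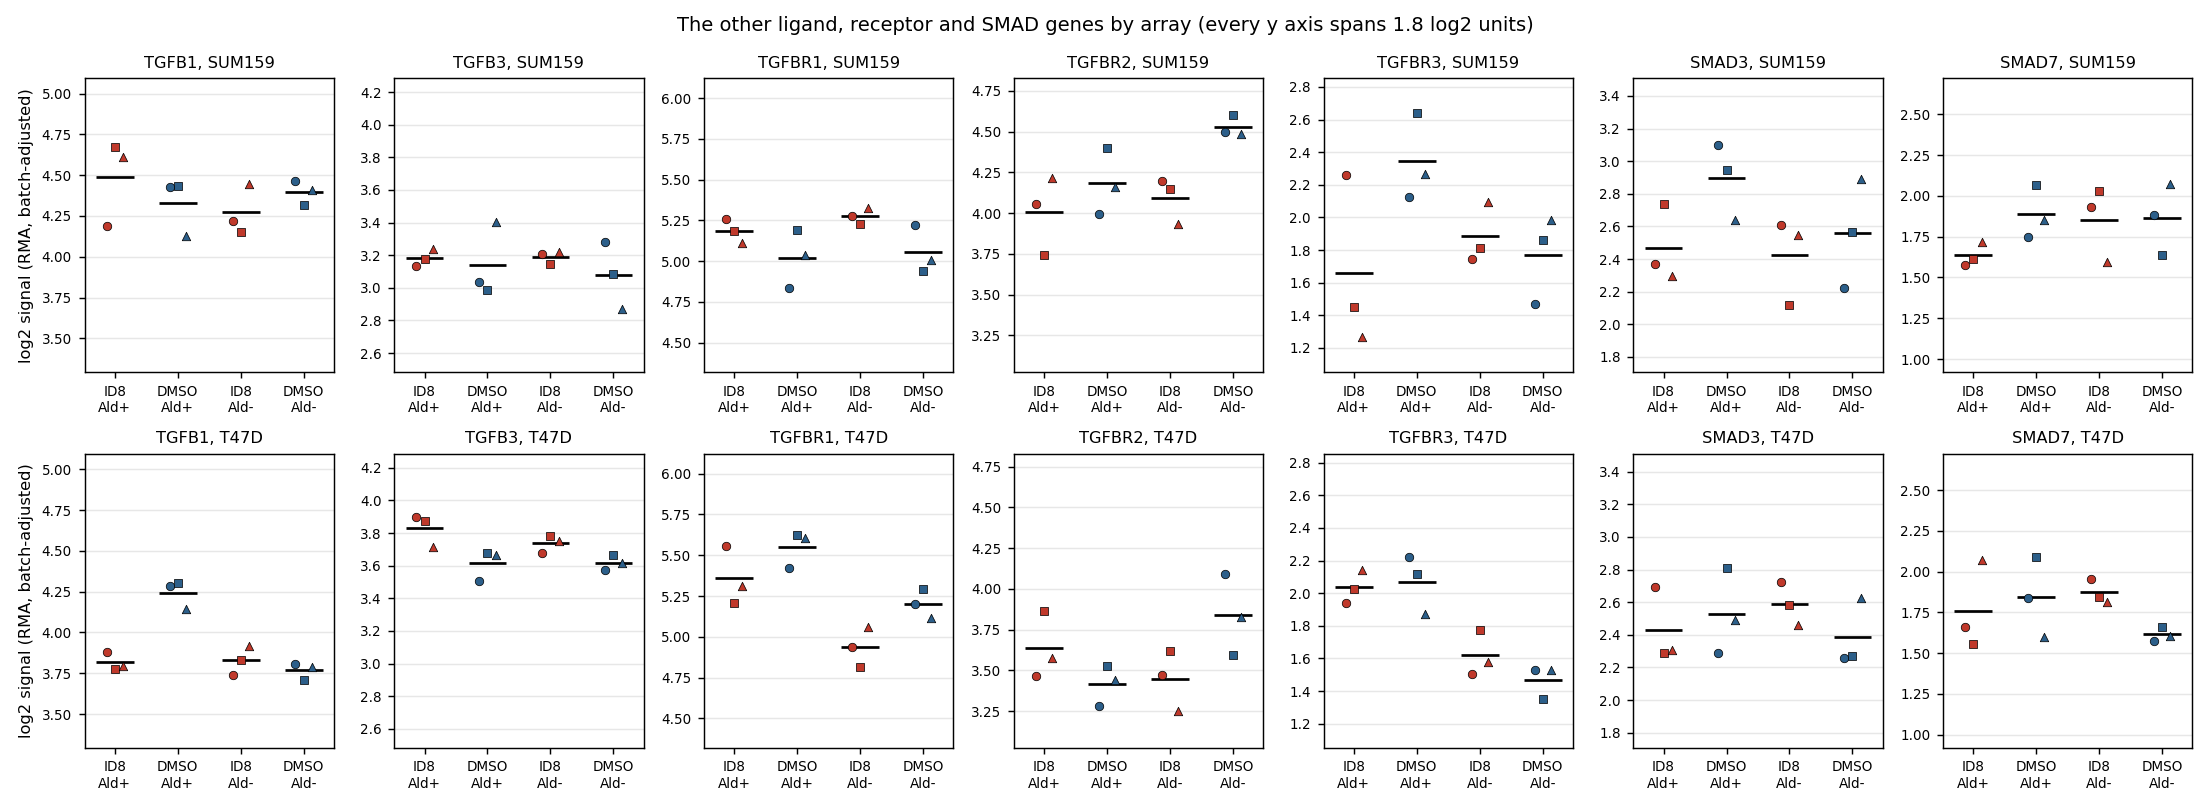
Log2 signal of the other 7 genes on each array, SUM159 above and T47D below, with points shaped by experiment as in the TGFB2 plot and bars at group means. Every axis spans the same log2 range. TGFB1 is lower with ID8 in T47D Aldefluor+ cells, TGFBR1 is higher in Aldefluor+ than in Aldefluor- T47D cells, and most other groups overlap.

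TGFBR1, the type I receptor kinase, was higher in Aldefluor+ than in Aldefluor- cells of T47D. With ID8 it measured 5.56, 5.21 and 5.31 in Aldefluor+ cells, against 4.94, 4.82 and 5.06 in Aldefluor- cells. With DMSO it measured 5.42, 5.62 and 5.61 in Aldefluor+ cells, against 5.20, 5.29 and 5.12 in Aldefluor- cells. The T47D fractions did not overlap under either treatment, and their differences were 0.42 ± 0.133 and 0.35 ± 0.133.

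In SUM159 the fraction differences of TGFBR1 were -0.09 ± 0.133 with ID8 and -0.03 ± 0.133 with DMSO, with overlap. Its ID8 minus DMSO differences had opposite signs in the lines, at 0.16 and 0.22 in SUM159 Aldefluor+ and Aldefluor- cells and -0.19 and -0.27 in T47D, all with an SE of 0.133 and adjusted p-values of 0.668 to 0.783 (limma). The test of that difference between the lines did not pass, at -0.35 ± 0.188 in Aldefluor+ cells (adjusted p = 0.515) and -0.49 ± 0.188 in Aldefluor- cells (adjusted p = 0.619).

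TGFBR2, the type II receptor kinase that binds ligand first, was lower with ID8 in Aldefluor- cells of SUM159 without passing the test. It measured 4.20, 4.15 and 3.94 with ID8, against 4.50, 4.60 and 4.49 with DMSO. These groups did not overlap, and the difference was -0.44 ± 0.17 (adjusted p = 0.507 by limma). In T47D Aldefluor- cells it measured 3.47, 3.62 and 3.25 with ID8, against 4.09, 3.59 and 3.83 with DMSO, a difference of -0.39 ± 0.17 (adjusted p = 0.748) with overlap.

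In Aldefluor+ cells the ID8 differences of TGFBR2 were -0.18 ± 0.17 in SUM159 and 0.22 ± 0.17 in T47D. With DMSO the receptor was lower in the Aldefluor+ fraction of both lines, by -0.34 ± 0.17 in SUM159 and -0.42 ± 0.17 in T47D, with no overlap in either. With ID8 the fraction differences were -0.09 ± 0.17 and 0.19 ± 0.17.

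TGFBR3, the coreceptor that presents TGFB2, had a mean of 1.86 over the 24 arrays, in the low range below 2 that holds 49% of all genes, where signal stands little above background. In SUM159 Aldefluor+ cells it measured 2.26, 1.45 and 1.27 with ID8, against 2.13, 2.64 and 2.27 with DMSO. The difference was -0.68 ± 0.226 (adjusted p = 0.256 by limma), and experiment 2 went the other way, at 0.13. In the other 3 ID8 comparisons the differences were 0.11 in SUM159 Aldefluor-, -0.03 in T47D Aldefluor+ and 0.15 in T47D Aldefluor- cells, with overlap.

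Among DMSO-treated cells TGFBR3 was higher in Aldefluor+ cells of both lines. In SUM159 it measured 2.13, 2.64 and 2.27 in Aldefluor+ cells, against 1.47, 1.86 and 1.99 in Aldefluor- cells, a difference of 0.57 ± 0.226. In T47D it measured 2.22, 2.11 and 1.87 in Aldefluor+ cells, against 1.53, 1.35 and 1.53 in Aldefluor- cells, a difference of 0.60 ± 0.226. In T47D it was also higher in Aldefluor+ cells with ID8, by 0.42 ± 0.226, so there the coreceptor and its ligand were both higher in Aldefluor+ cells. In ID8-treated SUM159 the difference was -0.23 ± 0.226, with overlap.

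SMAD3, the receptor-activated transducer, averaged 2.54 over the arrays and overlapped between groups in every one of the 8 comparisons. Its largest ID8 difference was in SUM159 Aldefluor+ cells, with 2.37, 2.74 and 2.30 with ID8, against 3.10, 2.95 and 2.64 with DMSO (-0.43 ± 0.216, adjusted p = 0.523 by limma). SMAD7, the inhibitory SMAD and a feedback target, averaged 1.79, also below 2. In SUM159 Aldefluor+ cells it measured 1.57, 1.61 and 1.72 with ID8, against 1.75, 2.07 and 1.85 with DMSO (-0.25 ± 0.172, adjusted p = 0.677). In T47D Aldefluor- cells it measured 1.96, 1.85 and 1.81 with ID8, against 1.58, 1.66 and 1.61 with DMSO (0.26 ± 0.172, adjusted p = 0.883). Neither of those pairs overlapped, but neither passed the test, so the lack of overlap is only a description.

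**Figure D4:**
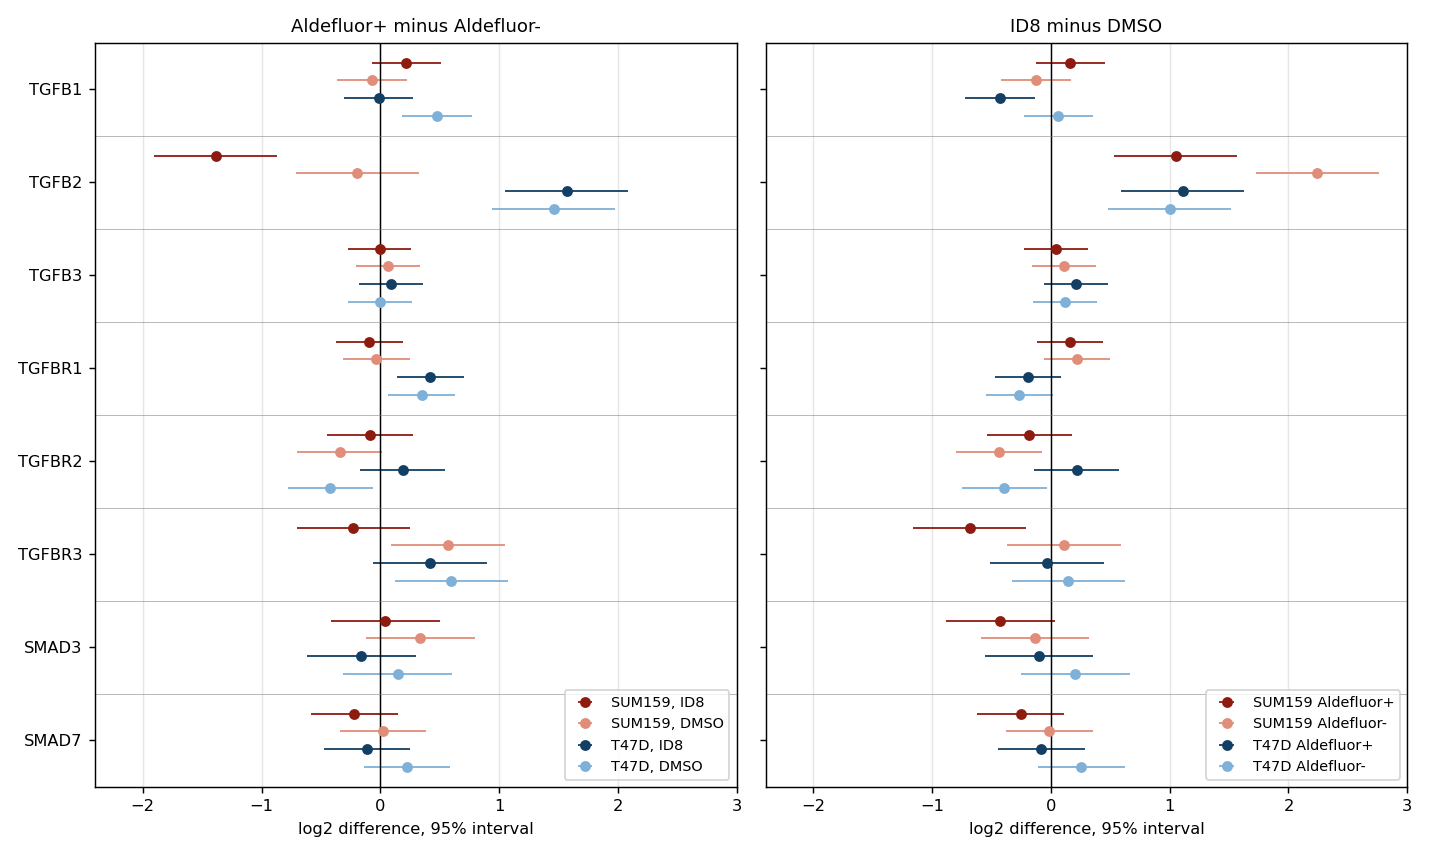
Log2 differences of the 8 genes with 95% intervals from the model, Aldefluor+ minus Aldefluor- on the left and ID8 minus DMSO on the right, coloured by line and by treatment or fraction. TGFB2 stands below 0 in ID8-treated SUM159 and above 0 in T47D on the left, and above 0 in all 4 comparisons on the right, while the estimates of the other 7 genes lie between -0.68 and 0.60.

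How alike the patterns were is given by correlations over the 24 arrays after the mean of each line was removed, as a description. Arrays share experiments, treatments and fractions, so they are not independent. With TGFB2, Pearson's r was 0.46 for TGFBR1, 0.42 for TGFB3, 0.18 for TGFBR3, 0.06 for TGFB1, 0.04 for SMAD7, -0.27 for SMAD3 and -0.31 for TGFBR2. For TGFBR3 it was -0.29 within SUM159 and 0.80 within T47D.

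Among 11417 genes with a mean of at least 2, the one most like TGFB2 was TGFB2-AS1, an antisense RNA gene that overlaps TGFB2 on the other strand in the RefSeq table (r = 0.91, and 0.94 within SUM159 and 0.89 within T47D). Its level was 3.03 to 3.48 with ID8 and 1.64 to 1.91 with DMSO in SUM159 Aldefluor- cells, and 2.11 to 2.68 with ID8 and 1.21 to 1.60 with DMSO in SUM159 Aldefluor+ cells. In T47D it was 2.58 to 3.11 with ID8 and 1.71 to 2.61 with DMSO in Aldefluor+ cells, and 2.10 to 2.27 with ID8 and 1.46 to 1.64 with DMSO in Aldefluor- cells. Only the T47D Aldefluor+ groups overlapped. Probe positions were not used here, so whether the probes of both genes read shared sequence was not tested.

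The next most alike were GLT8D2, a glycosyltransferase gene (r = 0.86), ITPR1, an intracellular calcium channel (0.85), HNRNPDL, an RNA-binding protein (0.84), ANXA3, an annexin (0.82), ROBO1, a guidance receptor (0.82), FOS, a subunit of AP-1 (0.82), and ACTA2, smooth muscle actin (0.81). The most opposite were COQ7, an enzyme of ubiquinone synthesis (-0.89), ASAP2 (-0.84), the cohesin subunit STAG1 (-0.80) and the mitotic kinase NEK7 (-0.80). Size did not follow likeness: HNRNPDL differed by 0.09 to 0.19 between ID8 and DMSO over the 4 comparisons, and ANXA3 by 0.01 in SUM159 Aldefluor+ and 1.60 in T47D Aldefluor+ cells.

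The rest of the pathway was read through 8 lists that held 144 measured genes: other ligands of the superfamily, activin and BMP receptors, ligand latency and activation, extracellular antagonists, SMADs and adaptors, negative regulators, and TGF-beta and BMP target genes. With ID8, 7 of the 144 rose in SUM159 Aldefluor- cells (4.86%), 3 rose in T47D Aldefluor+ cells (2.08%), and 0 passed in SUM159 Aldefluor+ and in T47D Aldefluor- cells (0% each, limma). None of the 144 fell with ID8 past the threshold. Of all genes, 0.277% were called in SUM159 Aldefluor-, 0.375% in T47D Aldefluor+, 0.241% in SUM159 Aldefluor+ and 0.0179% in T47D Aldefluor- cells. The lists were chosen with earlier results of these data known. Their counts, also those between fractions below, are therefore a description, and nothing is read from an excess over all genes. Without experiment 3 or 4, the 7 genes in SUM159 Aldefluor- cells became 1 and 0, and without experiment 5, 6 or 7 the 3 genes in T47D Aldefluor+ cells became 0, an alternative chosen after the data were seen.

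Of the 21 genes that store or activate the ligands, 2 rose with ID8 in SUM159 Aldefluor- cells, where 0.277% of all genes were called. ITGB3, the integrin subunit beta 3, which binds latent TGF-beta, measured 4.30, 4.50 and 4.45 with ID8, against 3.04, 3.17 and 2.84 with DMSO (1.40 ± 0.181, adjusted p = 0.00181 by limma). THBS1, thrombospondin 1, which releases active ligand from the latent complex, measured 8.53, 8.78 and 8.91 with ID8, against 7.46, 7.74 and 7.67 with DMSO (1.12 ± 0.146, adjusted p = 0.00181). ID8 and DMSO arrays lay fully apart for both genes. In SUM159 Aldefluor+ cells ITGB3 was also higher with ID8, without overlap, and did not pass (0.67 ± 0.181, adjusted p = 0.16 by limma). THBS1 differed there by -0.06 ± 0.146 (adjusted p = 0.941).

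In T47D Aldefluor- cells THBS1 had the opposite sign. It measured 8.16, 8.04 and 8.11 with ID8, against 8.93, 8.81 and 8.90 with DMSO (-0.77 ± 0.146, adjusted p = 0.112 by limma). The T47D minus SUM159 difference of the THBS1 response in Aldefluor- cells was -1.89 ± 0.206 and passed the test (adjusted p = 0.000505). In DMSO-treated T47D, THBS1 fell in Aldefluor+ cells relative to Aldefluor- cells (-0.95 ± 0.146, adjusted p = 0.00889), the opposite of TGFB2 in the same arrays. ITGB8, an integrin subunit that also activates the ligand, did not pass in any comparison, with its largest ID8 difference of 0.78 ± 0.206 in T47D Aldefluor+ cells (adjusted p = 0.146).

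Of 42 measured TGF-beta target genes, 4 rose with ID8 in SUM159 Aldefluor- cells and 2 in T47D Aldefluor+ cells. Of all genes, 0.277% and 0.375% were called there. ACTA2 measured 2.98, 3.31 and 3.32 with ID8, against 2.27, 1.67 and 1.48 with DMSO, in SUM159 Aldefluor- cells (1.40 ± 0.219, adjusted p = 0.00832 by limma). It measured 3.21, 3.47 and 3.56 with ID8, against 2.60, 2.00 and 2.33 with DMSO, in T47D Aldefluor+ cells (1.11 ± 0.219, adjusted p = 0.0388). The groups lay apart both times.

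TPM1, a tropomyosin of actin filaments, rose in the same comparisons as ACTA2. It measured 5.63, 5.62 and 5.93 with ID8, against 5.10, 4.58 and 4.83 with DMSO, in SUM159 Aldefluor- cells (0.89 ± 0.164, adjusted p = 0.0299 by limma). In T47D Aldefluor+ cells it measured 6.19, 5.86 and 6.01 with ID8, against 5.09, 5.11 and 5.06 with DMSO (0.93 ± 0.164, adjusted p = 0.0219). TAGLN, the actin-binding protein transgelin, rose in SUM159 Aldefluor- cells, at 2.54, 3.34 and 3.04 with ID8, against 1.66, 1.46 and 1.64 with DMSO (1.39 ± 0.237, adjusted p = 0.0186). The DMSO arrays of TAGLN lay below 2, as did 2 of the 3 of ACTA2 in SUM159 Aldefluor- cells, where signal stands little above background and the size of a difference is uncertain.

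EDN1, the vasoconstrictor peptide endothelin 1, rose there as well, at 6.62, 6.96 and 6.85 with ID8, against 6.15, 5.68 and 5.86 with DMSO (0.91 ± 0.142, adjusted p = 0.00823 by limma). In T47D Aldefluor+ cells EDN1 differed by 0.64 ± 0.142 and did not pass (adjusted p = 0.0674). In SUM159 Aldefluor+ cells TAGLN, ACTA2, TPM1 and EDN1 also had higher means with ID8 than with DMSO, and none passed. These were 3.17 against 2.26 for TAGLN, 2.91 against 2.22 for ACTA2, 5.75 against 5.15 for TPM1 and 6.98 against 6.34 for EDN1. ACTA2 differed by 0.83 in T47D Aldefluor- cells and did not pass. ACTA2, TPM1 and TAGLN are actin and actin-binding genes that other contractile programmes also use. The median ID8 difference of the 42 genes was 0.15 in SUM159 Aldefluor- cells, where all genes had -0.01, and -0.02 in T47D Aldefluor+ cells, where all genes had -0.01.

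**Figure D5:**
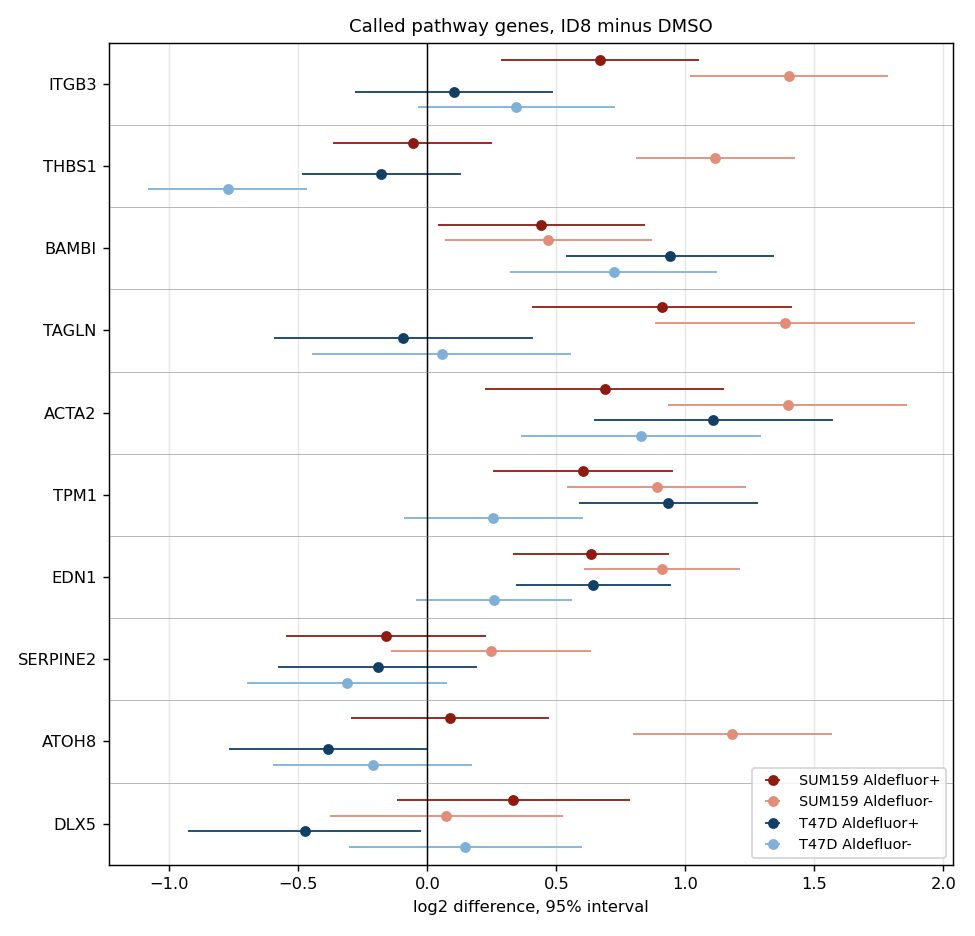
ID8 minus DMSO log2 differences with 95% intervals for the 10 pathway genes called in any of the 8 group comparisons, by line and fraction. ITGB3, THBS1, TAGLN, ACTA2, TPM1, EDN1 and ATOH8 were called higher in SUM159 Aldefluor- cells, and BAMBI, ACTA2 and TPM1 in T47D Aldefluor+ cells. THBS1 lies on opposite sides of 0 in the Aldefluor- cells of the 2 lines.

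Of 13 BMP target genes, 1 rose with ID8 in SUM159 Aldefluor- cells and 1 in T47D Aldefluor+ cells, where 0.277% and 0.375% of all genes were called. In SUM159 Aldefluor- cells it was ATOH8, a basic helix-loop-helix factor, at 2.87, 3.03 and 3.19 with ID8, against 1.74, 1.84 and 1.96 with DMSO (1.18 ± 0.182, adjusted p = 0.00755 by limma). Its DMSO arrays also lay below 2. BAMBI, a decoy receptor that dampens TGF-beta signals and is counted both among the 17 negative regulators and the BMP targets, rose with ID8 in T47D Aldefluor+ cells. It measured 6.01, 5.78 and 6.01 with ID8, against 4.96, 5.02 and 5.01 with DMSO (0.94 ± 0.19, adjusted p = 0.0436). In the other 3 ID8 comparisons BAMBI differed by 0.44, 0.47 and 0.72 and did not pass.

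Between fractions, 2 of the 144 genes fell in Aldefluor+ cells of ID8-treated SUM159 (1.39%, against 0.201% of all genes called), and 0 passed in DMSO-treated SUM159 (0%, against 0.0223%). In T47D 1 fell with ID8 (0.694%, against 0.366%) and 1 with DMSO (0.694%, against 0.152%). In ID8-treated SUM159 these were ATOH8 (-0.97 ± 0.182, adjusted p = 0.0437 by limma) and the protease inhibitor SERPINE2 (-0.96 ± 0.183, adjusted p = 0.0446), both lower in Aldefluor+ cells as TGFB2 was. SERPINE2 measured 1.25, 1.16 and 1.51 in Aldefluor+ cells, against 2.48, 2.29 and 2.05 in Aldefluor- cells, so its Aldefluor+ arrays lay below 2. Of the 7 fits that left out an experiment or the array of narrowest spread, the call was lost in 6 for ATOH8 and in 5 for SERPINE2, with differences of -1.15 to -0.88 and -1.17 to -0.83. In ID8-treated T47D it was DLX5, a homeobox factor, at 2.17, 2.02 and 2.43 in Aldefluor+ cells, against 3.66, 3.54 and 3.54 in Aldefluor- cells (-1.37 ± 0.213, adjusted p = 0.00534). With DMSO it was THBS1, given above.

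None of the 22 other ligands, 13 activin and BMP receptors, 11 extracellular antagonists or 13 SMADs and adaptors passed in any of the 8 comparisons. Of all genes, 0.0179% to 0.375% were called in them. Named from these lists by the size of their differences were FSTL3, an activin antagonist, which measured 3.29, 3.55 and 3.30 with ID8, against 4.38, 4.63 and 4.21 with DMSO, in T47D Aldefluor- cells (-1.03 ± 0.183, adjusted p = 0.0941 by limma), and the adaptor DAB2, which measured 2.51, 2.14 and 2.73 with ID8, against 3.56, 3.69 and 3.11 with DMSO, in SUM159 Aldefluor+ cells (-0.99 ± 0.232, adjusted p = 0.104). The coactivator CREBBP differed by -0.49 ± 0.119 in SUM159 Aldefluor+ cells (adjusted p = 0.124). The ligand GDF15 differed by 0.77 ± 0.183 in T47D Aldefluor- cells (adjusted p = 0.374).

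Others named by the same rule had smaller or less certain differences. INHBB, an inhibin and activin subunit, differed by 0.86 ± 0.281 between the fractions of ID8-treated T47D (adjusted p = 0.307 by limma). ENG, the coreceptor endoglin, differed by -0.63 ± 0.236 with ID8 in SUM159 Aldefluor+ cells (adjusted p = 0.344), and the SMAD anchor ZFYVE9 and the ubiquitin ligase SMURF2 by -0.63 ± 0.199 and -0.57 ± 0.148 in SUM159 Aldefluor- cells (adjusted p = 0.328 and 0.174). BMP8B, BMPR1B, NRP1, NOG, TWSG1 and USP11 differed by at most 0.54 in size in any of the 8 comparisons.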

How the data were processed

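The deposited values are log2 signals of 53617 probe sets on 24 Affymetrix Human Gene ST arrays, and amplified cDNA was hybridised, per the labels' protocols. The authors made them with RMA and adjusted batch effects of experiment and processing with ComBat, per the submitters' processing notes and the design text. Versions, and the covariates kept in ComBat, were not given in the sources used here. That adjustment can compress differences, within a line too.

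Probe sets were named through the platform annotation, with symbols updated by gene number. Of these, 23871 named 1 gene, 1842 several and 27904 none. Only those naming 1 gene were used, the one with the highest mean per gene, which left 22395 genes. Differences were tested with limma 3.58.1 (R 4.3.3, lmFit and eBayes). A single model held all 24 arrays, a mean for each of the 8 groups and, within each line, a blocking term for the experiment. Benjamini-Hochberg adjustment ran over all genes of a comparison. The steps were tested on simulated data. Errors named SE come from this model, with 1 spread per gene shared by all groups, and SDs are over arrays.

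The labels state that an experiment number marks a separate experiment, so the numbers pair the arrays. Deviations of same-experiment arrays correlated between -0.408 and -0.266 over 36 pairs, after the deposited values had experiment means removed. The labels do not say more of how separate the cultures were. With the experiment as a block, p-values measure how differences between groups vary over these experiments. Shifts shared by all arrays of an experiment do not enter. The 8 genes and the pathway lists were chosen with earlier results of these data known. Named pathway genes are every list gene called in the 8 comparisons and, in lists with fewer than 3, those with the largest differences up to 3, at a mean of at least 2. The alternatives left out each experiment in turn or the array with the narrowest spread, and changed the block, normalization, filter, probe-set rule, variance prior or arrays fitted.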

Additional observations from a re-analysis of the deposited data

Results flagged for a closer look

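The fraction difference of TGFB2 (Aldefluor+ minus Aldefluor-) had one sign in all 3 T47D experiments and the other in all 3 SUM159 experiments, with either treatment. The T47D minus SUM159 difference was 2.95 on the log2 scale with ID8 and 1.66 with DMSO. It was not tested, because TGFB2 was chosen for this pattern.

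TGFBR1 did the same with ID8, at 0.514 between the lines, and this too was not tested. In SUM159 its 3 experiments gave -0.02, -0.04 and -0.21, close to 0.

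The ID8 response of THBS1 in Aldefluor- cells differed between the lines by -1.89 (T47D minus SUM159), which passed limma's test of the difference. Groups held 3 arrays, too few for a check of single arrays standing apart.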

How the results depend on the processing

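The fraction differences of TGFB2 kept their direction and stayed within the spread between arrays under all 14 alternatives, but most of these could not move them. Groups were balanced and TGFB2 had 1 probe set. The block, filter, probe-set rule, variance prior and the other line's arrays therefore left a difference unchanged. It could move only with the normalization or when arrays of its own line were left out. Leaving out an experiment or array gave -1.39 to -1.37 in SUM159 with ID8, -0.29 to -0.11 in SUM159 with DMSO, 1.26 to 1.87 in T47D with ID8 and 1.14 to 1.85 in T47D with DMSO. No difference past the threshold changed sign, while some that had not passed did, such as SMAD3 with ID8 in T47D Aldefluor+ cells (-0.35 to 0.11 when an experiment or array was left out). The other 7 genes passed the threshold in 0 of 384 values over these alternatives, with a lowest adjusted p of 0.0648.

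The number of the 8 genes past the threshold changed through TGFB2. Since TGFB2 was chosen on these arrays, the counts below describe the fits and are no test of it. Without the replicate block, 1 passed for ID8 in SUM159 Aldefluor+ cells and 1 in T47D Aldefluor+ cells, where the fit with the pairing had 0 in both. With a trend in the variance prior 1 passed in both, with only genes of mean at least 2 it was 1 in T47D Aldefluor+ cells, and with only the line's own arrays 1 in SUM159 Aldefluor+ cells. Leaving out an experiment or array gave 0 to 1 in SUM159 Aldefluor+, SUM159 Aldefluor- and T47D Aldefluor- cells, and 0 to 0 in T47D Aldefluor+ cells. Leaving out experiment 5 raised the counts in SUM159 Aldefluor+ and T47D Aldefluor- cells, and leaving out experiment 4 ended the call in SUM159 Aldefluor- cells. The causes were not tested, beyond the fewer arrays in these fits.

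Counts over all genes moved more. Without the replicate block the ID8 comparisons called 397 genes in SUM159 Aldefluor+, 225 in SUM159 Aldefluor-, 530 in T47D Aldefluor+ and 35 in T47D Aldefluor- cells, against 54, 62, 84 and 4 with it, and the fraction comparisons called 208, 88, 325 and 242 against 45, 5, 82 and 34 (SUM159 ID8, SUM159 DMSO, T47D ID8, T47D DMSO). The unblocked fit counts degrees of freedom that the batch adjustment had used. In the same order of ID8 comparisons, leaving out an experiment or array gave 3 to 49, 8 to 60, 1 to 91 and 0 to 5. For the fractions it gave 5 to 32, 2 to 4, 14 to 85 and 5 to 44. With the trend the counts past 1.5 times were 135, 150 and 10 for ID8 in SUM159 Aldefluor+, T47D Aldefluor+ and T47D Aldefluor- cells and 10 and 65 for the DMSO fractions of SUM159 and T47D. Genes of mean at least 2 gave 118, 131 and 70 for ID8 in SUM159 Aldefluor+, T47D Aldefluor+ and for the T47D DMSO fractions. All probe sets gave 35, 55 and 0 for ID8 in SUM159 Aldefluor+, T47D Aldefluor+ and T47D Aldefluor- cells and 21 for the SUM159 ID8 fractions, and only the line's arrays gave 17, 22, 40 and 2 for ID8 and 16 and 2 for the SUM159 fractions.

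Of 195 values of called pathway genes, 131 kept their call, 64 lost it and 0 reversed. Where an experiment or array was left out, some differences moved little. In SUM159 Aldefluor- cells these were 1.30 to 1.47 for ITGB3, 1.06 to 1.15 for THBS1 and 1.16 to 1.20 for ATOH8. BAMBI in T47D Aldefluor+ cells ran from 0.88 to 1.03. Others moved more, at 1.14 to 1.64 for TAGLN, 1.17 to 1.74 for ACTA2 and 0.73 to 1.13 for EDN1 in SUM159 Aldefluor- cells. ACTA2 in T47D Aldefluor+ cells ran from 0.93 to 1.35. Fewer arrays were fitted in these leave-out fits and calls over all genes fell in many of them too. A lost call therefore does not by itself show a weaker effect. SUM159 Aldefluor- calls of ITGB3 were lost without experiment 4, of THBS1, ACTA2 and EDN1 without 3 or 4, of ATOH8 without 2, 3 or 4, of TAGLN without 3, 4 or 5, and of TPM1 without any 1 of the 6 experiments. T47D Aldefluor+ calls of BAMBI, TPM1 and ACTA2, and the T47D fraction calls of DLX5 and THBS1, were lost without experiment 5, 6 or 7, ACTA2 also without 3 or 4 and BAMBI without 2. The SUM159 fraction calls of SERPINE2 and ATOH8 were each lost in 5 of the 6 fits that left out an experiment. Without the block 7, 11, 5 and 2 pathway genes passed for ID8, against 0, 7, 3 and 0 with it. TGFBR3, SMAD7, the Aldefluor+ arrays of SERPINE2 in SUM159 with ID8 and the DMSO arrays of TAGLN and ATOH8 in SUM159 Aldefluor- cells lie where signal stands little above background, which limits what their values can show.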
